A study of Mus musculus with 13 samples.

Results

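Enzymes that place or remove methyl groups on histone lysines were followed through meiotic maturation of mouse oocytes, with and without the long noncoding RNA Sirena1 (symbol C86187 in RefSeq). The members were all genes whose symbol begins with Kdm, Kmt or Setd followed by a digit, plus Setdb1, Setdb2, Ehmt1, Ehmt2, Ezh1 and Ezh2, leaving out symbols that contain -ps. They made up 42 of the 54232 genes counted. Tests covered 40 of them, 22 methyltransferases or SET-domain proteins and 18 demethylases or JmjC proteins, among 20143 genes that passed a filter on low counts. The remaining members were Kdm4dl, annotated as a pseudogene, with 0 to 2 counts per library, and Kdm6bos, a transcript antisense to Kdm6b, with 0 to 5 counts per library and 0 in every MII library.

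The libraries came from metaphase II (MII) eggs and from fully grown germinal vesicle (GV) oocytes, which rest in meiotic prophase. There were 4 MII libraries from Sirena1 Null females, 3 MII libraries from wild-type (WT) females, 3 GV libraries from Sirena1 Null females and 3 GV libraries from WT females. All females were superovulated, and all eggs and oocytes were taken into M2 medium. Eggs were collected 12 to 14 h after human chorionic gonadotropin, whereas GV oocytes were taken into medium with 0.2 mM IBMX, a phosphodiesterase inhibitor that blocks meiotic resumption. Each library was made from 25 cells, with polyA RNA given as the molecule and 0.2 pg of Renilla luciferase mRNA added to every sample. Null animals carry a Cas9 deletion of the Sirena1 promoter and were bred to C57BL/6NCrl mice, and the labels give the strain of all 13 samples as C57BL6/J while the protocol names both C57Bl6/J and C57BL/6NCrl as sources of oocytes. The labels do not say how many animals or founder lines were used, so p-values measure the spread between these samples, which may be partly technical.

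Histone methylation is read according to the lysine that carries it. Methylated H3K4 marks promoters and enhancers, H3K36 marks transcribed gene bodies, H3K9 and H3K27 mark silenced chromatin, and H4K20 is tied to chromosome compaction. The fully grown mouse oocyte has stopped transcription and resumes it only in the embryo, so between GV and MII its mRNAs are stored, translated or degraded. Mouse oocytes rely on several of these enzymes, among them Kmt2b for H3K4 methylation during oocyte growth, Setd2 for H3K36 methylation that guides DNA methylation, and Kdm1b for setting maternal imprints.

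Library totals ran from 30867614 to 41285507 counts, and a count of 3, used as the detection floor, corresponded to 0.0672 to 0.105 CPM (counts scaled to library size with TMM factors) per library; such floors cover counting error only. Sirena1 stood at 44.8, 39.6, 45.0 and 35.9 CPM in the MII Null libraries and 4271, 4693 and 4595 CPM in the MII WT libraries, and at 26.4, 23.3 and 24.7 CPM in the GV Null libraries and 2912, 3015 and 3092 CPM in the GV WT libraries, so every library matched its genotype label. The libraries were not alike in other respects. The summed level of 21 markers of the cumulus and granulosa cells that surround an oocyte was 101 to 135 CPM in MII Null and 108 to 111 CPM in MII WT, and 101, 628 and 260 CPM in GV Null replicates 1 to 3, against 101 to 131 CPM in GV WT. Nr5a2 (52.3 to 82.6 CPM per library) and Cyp19a1 (24.4 to 38.8 CPM) made up most of the sum outside GV Null replicates 2 and 3. Similar sums can therefore hide differences in the other markers. MII Null replicate 4 lay between the stages on the leading principal component, at 25.7, whereas MII Null replicates 1 to 3 lay at 65.8 to 81.4. The 12 defining oocyte markers, such as Gdf9 and Zp3, summed to 10358 to 14681 CPM in every library, and the members together took 0.573% to 0.677% of the counts of each library.

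Meiotic maturation changed most members, and it did so in a lopsided way. In Null, 27 of 40 members (67.5%) passed the test, 18 higher and 9 lower in eggs, against 49% of all 20143 genes tested, of which 22.1% were higher and 26.9% lower. In WT, 23 members (57.5%) passed, 16 higher and 7 lower, against 42.7% of all genes, 19.9% higher and 22.8% lower. The rises were small and even, with log2 fold changes of 0.21 to 0.57 in Null and 0.18 to 0.58 in WT, none of them over 1.5-fold. Egg and GV libraries did not overlap for 14 members that lay higher and 6 that lay lower in Null, where 21.2% and 25.2% of all genes did so, and for 21 and 7 members in WT, where 28.2% and 30.1% of all genes did so. The falls were fewer and deeper, spanning 1.25-fold to 8.17-fold in Null (the last for Setd7, whose call ends without GV Null replicate 2) and 1.18-fold to 6.16-fold in WT, and 8 of the 9 falls in Null and 6 of the 7 in WT exceeded 1.5-fold. The median log2 fold change over the members tested was 0.14 in Null and 0.18 in WT, beside -0.05 and 0.01 over all genes tested. Part of that gap went with level. At 10 CPM or more the median was 0.30 in Null and 0.29 in WT for members, beside 0.18 and 0.17 for all genes.

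All 16 members called higher in WT were also called higher in Null, where Ehmt1 and Ezh2 joined them. There were 5 members called lower in both genotypes, namely Setd4, Kdm5d (reads counted on a Y-linked gene that oocytes lack), Ehmt2, Kdm5a and Kdm4b. Kdm1b, Kdm4c, Kmt5b and Setd7 were called lower in Null alone, and Setd3 and Setd6 in WT alone, although a direct test of the difference between genotypes called none of them. The other 11, Kdm3a, Kdm3b, Kdm4d, Kdm5b, Kdm8, Kmt2a, Kmt2e, Kmt5c, Setd2, Setd5 and Setdb2, passed in neither genotype. The balance differed with level. Among the 28 members with at least 10 CPM, 64.3% were higher and 10.7% lower in Null, beside 44.6% and 20.8% of the 8343 genes at that level; in WT the shares were 57.1% and 14.3%, beside 39.2% and 21%. In bulk pools a change in the share of the library and a change in RNA per cell cannot be told apart, and no count of the spike-in was used here. The molecule was polyA RNA, and whether capture through the polyA tail differed between the stages was not tested. Scaled by library totals alone, which lowers the median of all genes by 0.23 (Null) and 0.20 (WT) on the log2 scale, the split became 10 higher and 13 lower in Null and 8 higher and 9 lower in WT. Of all 20143 genes tested, 1985 were then higher and 7306 lower in Null, and 1831 higher and 5898 lower in WT.

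**Figure D1:**
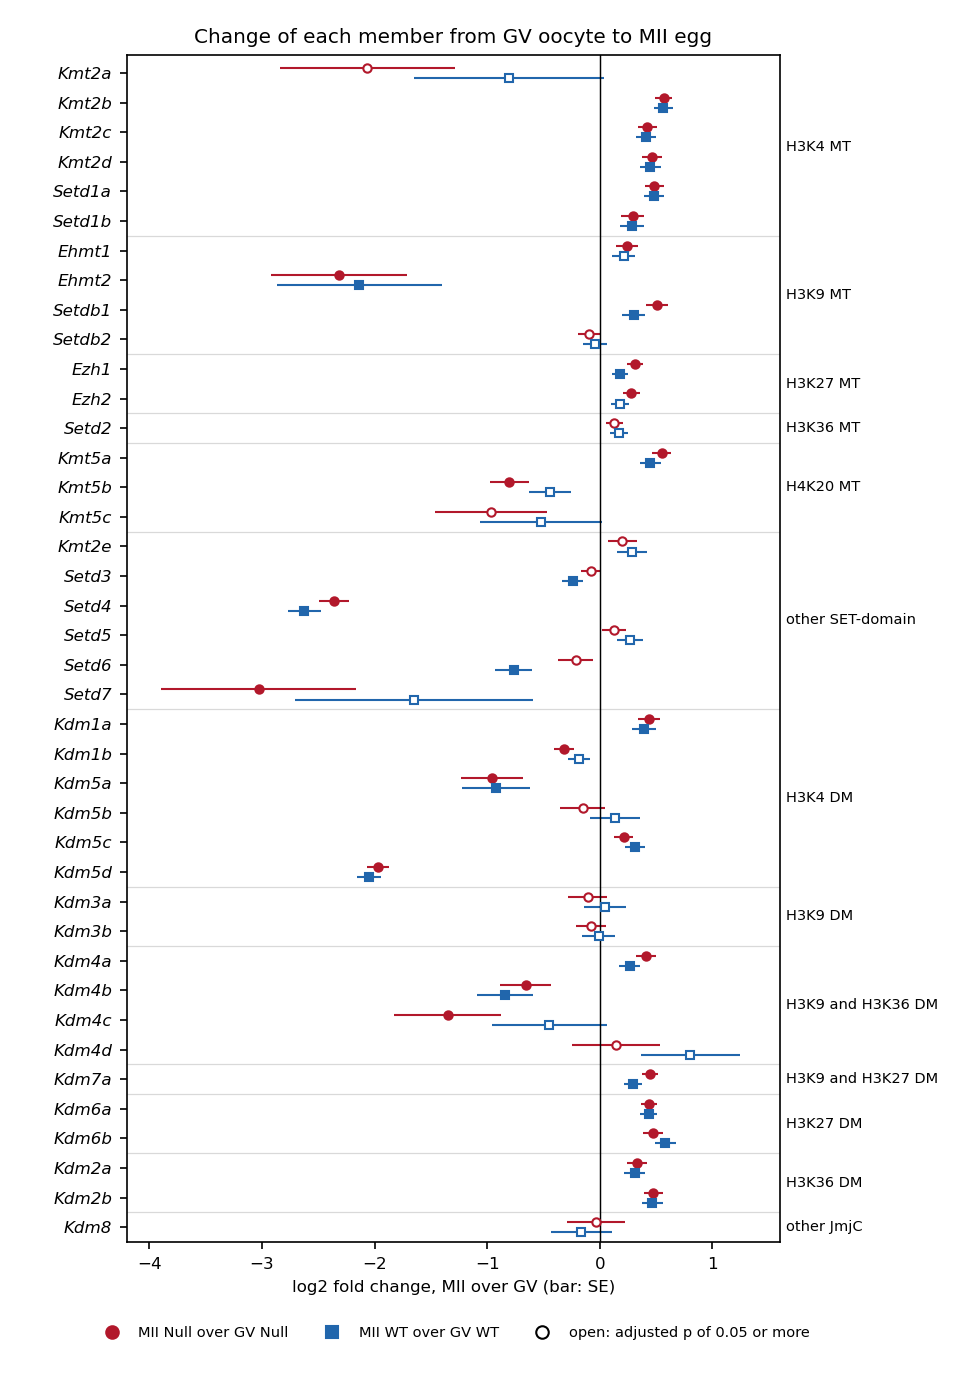
Log2 fold change of each of the 40 tested members between MII eggs and GV oocytes, in Null (red circles) and in WT (blue squares), grouped by the residue the enzyme acts on (MT, methyltransferases; DM, demethylases). Bars are the SE of the fit and open symbols mark an adjusted p of 0.05 or more; the rises cluster below 0.6, while Setd4 and Kdm5d lie near or beyond -2 in both genotypes and Setd7, Ehmt2 and Kmt2a carry wide bars.

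Promoters are shown for the members with the deepest falls and the largest rises in WT among those that have a single window in RefSeq, so that sequences around annotated starts can be read side by side. Kdm5d is annotated on the Y chromosome, which oocytes lack, so its window is not a start that these cells carry. Which sequence gave the reads counted as Kdm5d was not tested. RefSeq (GRCm38.p6) gave windows of 250 bases before to 50 bases after a start for 32 of 42 members, 43 windows in all. The windows of Setd4 and Kmt2d lie inside the genes' annotated spans, around a start other than the outermost one, and the window of Kdm5d begins just outside its span. Capitals mark matches, on either strand, to the GC box GGGCGG, to CCAAT or to the TATA box TATAAA; the 8 capitals of Kdm5d hold that box on both strands, overlapping itself. Each is written 5′ to 3′ on the gene's strand.
Setd4 (chr16:93603766-93604065, minus strand, fell): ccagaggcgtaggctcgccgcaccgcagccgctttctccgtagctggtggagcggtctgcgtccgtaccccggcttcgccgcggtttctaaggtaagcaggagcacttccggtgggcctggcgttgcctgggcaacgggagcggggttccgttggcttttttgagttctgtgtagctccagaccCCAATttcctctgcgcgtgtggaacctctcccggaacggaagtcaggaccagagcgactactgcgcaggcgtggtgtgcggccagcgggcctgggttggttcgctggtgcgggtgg
Kdm5d (chrY:897538-897837, plus strand, fell): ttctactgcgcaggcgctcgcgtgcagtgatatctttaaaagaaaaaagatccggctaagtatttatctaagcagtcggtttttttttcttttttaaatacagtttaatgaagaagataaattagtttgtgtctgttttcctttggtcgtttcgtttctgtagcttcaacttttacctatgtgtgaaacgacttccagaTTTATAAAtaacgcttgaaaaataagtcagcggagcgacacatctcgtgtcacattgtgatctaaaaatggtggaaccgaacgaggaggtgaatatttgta
Setd1a (chr7:127777139-127777438, plus strand, rose): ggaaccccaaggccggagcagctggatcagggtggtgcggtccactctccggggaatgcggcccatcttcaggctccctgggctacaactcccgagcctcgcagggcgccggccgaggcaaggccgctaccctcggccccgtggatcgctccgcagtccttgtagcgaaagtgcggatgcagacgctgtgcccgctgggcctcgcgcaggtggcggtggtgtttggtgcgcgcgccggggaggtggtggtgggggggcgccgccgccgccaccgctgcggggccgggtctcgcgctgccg
Kmt2d (chr15:98871156-98871455, minus strand, rose): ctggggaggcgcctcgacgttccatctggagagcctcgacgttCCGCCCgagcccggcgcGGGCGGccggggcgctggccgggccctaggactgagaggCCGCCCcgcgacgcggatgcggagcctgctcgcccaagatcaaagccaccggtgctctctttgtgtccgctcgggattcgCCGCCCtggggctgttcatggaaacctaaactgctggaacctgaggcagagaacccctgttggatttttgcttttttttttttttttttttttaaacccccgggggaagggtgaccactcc

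These windows differ in base composition. The Setd4, Setd1a and Kmt2d windows hold 29, 35 and 27 CpG dinucleotides and are 65.3%, 73.7% and 62.7% G or C, whereas the Kdm5d window holds 15 CpG and is 36.7% G or C. A GC box was found in 65.1% of the members' 43 windows and in 35.7% of all 32851 windows, CCAAT in 41.9% and 37.4%, and TATAAA in 2.33% (the Kdm5d window) and 13.6%. No window of a member had 2 different motifs overlapping. The median CpG number was 28 in the members' windows and 7 in all windows. A match describes letters, and no match says only that these letters are absent from the window.

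The H3K4 methyltransferases rose, apart from Kmt2a. Of 6, 5 passed as higher in both genotypes and none as lower. Of all genes, 22.1% were higher in Null and 19.9% in WT, and 44.6% and 39.2% of those with at least 10 CPM. Kmt2b (chromosome 7, 30568855 to 30589056 in GRCm38.p6) stood at 209, 251, 247 and 204 CPM in MII Null and 231, 243 and 233 CPM in MII WT, against 154, 147 and 160 CPM in GV Null and 164, 160 and 155 CPM in GV WT. Every egg library lay above every GV library. The log2 fold change was 0.57 in Null (SE 0.08, adjusted p = 1.05e-05) and 0.56 in WT (SE 0.08, adjusted p = 2.52e-05). Setd1a, a catalytic subunit of the SET1 complexes that deposit most H3K4 trimethylation in somatic cells, stood at 71.1, 78.2, 73.8 and 62.8 CPM in MII Null and 74.6, 69.7 and 72.5 CPM in MII WT, against 51.9, 46.1 and 55.5 CPM in GV Null and 50.2, 51.6 and 53.7 CPM in GV WT. The stages again did not overlap, and Setd1a rose by 0.48 in Null (adjusted p = 0.000134) and in WT (adjusted p = 0.000299).

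Kmt2d and Kmt2c, which place H3K4 monomethylation at enhancers, kept step with each other. Kmt2d reached 978 ± 134 CPM in MII Null (SD, n = 4) and 710 ± 47.1 CPM in GV Null (n = 3), and 1018 ± 24.4 CPM in MII WT and 746 ± 26.9 CPM in GV WT (n = 3 each); its log2 fold change was 0.46 in Null and 0.45 in WT. Kmt2c reached 1458 ± 181 CPM in MII Null and 1088 ± 73.8 CPM in GV Null, and 1483 ± 63.8 CPM in MII WT and 1114 ± 16.4 CPM in GV WT, changes of 0.42 and 0.41. The log2 ratio of Kmt2c to Kmt2d counts stayed between 0.54 and 0.61 in the means of all 4 groups. Setd1b rose by 0.29 in both genotypes (adjusted p = 0.0235 in Null and 0.0391 in WT), with 78.2 to 109 CPM in MII Null overlapping 73.5 to 80.8 CPM in GV Null. Its call ended in Null without GV Null replicate 1 or 2 or MII Null replicate 2 or 3 (adjusted p up to 0.137), and in WT on leaving out any 1 of 8 libraries (GV WT replicates 1 and 3, MII Null replicates 2 to 4 and MII WT replicates 1 to 3; adjusted p up to 0.155). Kmt2a, the founding member of the family, did not pass, with log2 fold changes of -2.06 in Null and -0.81 in WT. It had 1.47, 1.82, 2.51 and 3.54 CPM in MII Null and 2.77, 21.9 and 4.59 CPM in GV Null, so GV Null replicate 2 alone sets the Null mean.

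The H3K9 methyltransferases went separate ways. Setdb1, which trimethylates H3K9 at retroelements, stood at 400, 469, 492 and 433 CPM in MII Null and 432, 435 and 434 CPM in MII WT, against 382, 281 and 281 CPM in GV Null and 356, 355 and 344 CPM in GV WT. It rose by 0.51 in Null (SE 0.10, adjusted p = 0.000254) and by 0.30 in WT (SE 0.10, adjusted p = 0.0228), and the stages did not overlap in either genotype. Without GV Null replicates 2 and 3 the Null call of Setdb1 ended (log2 0.23, adjusted p = 0.0959). The WT call ended on leaving out any 1 of GV WT replicates 1 to 3, MII WT replicates 1 to 3 or MII Null replicates 2 and 4 (adjusted p up to 0.0748), while its log2 fold change stayed between 0.25 and 0.31. Ehmt1, which places H3K9 mono- and dimethylation as a dimer with Ehmt2, stood at 37.6 ± 4.81 CPM in MII Null and 31.7 ± 1.54 CPM in GV Null (log2 0.24, adjusted p = 0.0416), and at 40.2 ± 1.27 CPM in MII WT and 34.7 ± 0.615 CPM in GV WT (log2 0.21, adjusted p = 0.0991). The Null call of Ehmt1 ended on leaving out any 1 of 8 libraries, the GV Null replicates 1 to 3, GV WT replicates 1 and 2 and MII Null replicates 1 to 3 (adjusted p up to 0.193). Setdb2 did not pass, with log2 fold changes of -0.10 in Null and -0.04 in WT.

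Ehmt2 was scarce and fell. It had 0.105, 0.280, 0.0953 and 0.932 CPM in MII Null and 0.132, 0.345 and 0.0953 CPM in MII WT, which is 3 to 10 counts per MII WT library, against 0.982, 2.57 and 1.73 CPM in GV Null and 0.649, 1.15 and 0.723 CPM in GV WT. Each egg library lay below each GV library of its genotype. The log2 fold change was -2.32 in Null (SE 0.60, adjusted p = 0.00487) and -2.13 in WT (SE 0.74, adjusted p = 0.0282). The highest values of each stage, in MII Null replicate 4 and GV Null replicate 2, fall in libraries that stand apart from their group; without GV Null replicates 2 and 3 the Null change was -1.48 (adjusted p = 0.214). The WT call ended without GV WT replicate 2 or MII WT replicate 1 or 3 (adjusted p up to 0.112).

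The catalytic subunits of Polycomb repressive complex PRC2, which methylates H3K27, changed little and in parallel. Ezh2 stood at 410, 448, 508 and 426 CPM in MII Null and 405, 342 and 359 CPM in GV Null (log2 0.28, SE 0.08, adjusted p = 0.00555), and at 447, 455 and 467 CPM in MII WT and 397, 400 and 411 CPM in GV WT (log2 0.18, SE 0.08, adjusted p = 0.0859). Egg and GV libraries did not overlap in either genotype. Ezh1 rose by 0.31 in Null (adjusted p = 0.000918) and by 0.18 in WT (adjusted p = 0.0495). Without GV Null replicates 2 and 3 the Null calls of both ended, at 0.15 for Ezh2 (adjusted p = 0.316) and 0.25 for Ezh1 (adjusted p = 0.0701). The log2 ratio of Ezh1 to Ezh2 counts was -2.20 ± 0.06 in MII Null, -2.21 ± 0.05 in MII WT, -2.24 ± 0.10 in GV Null and -2.21 ± 0.03 in GV WT. The WT call of Ezh1 held on leaving out GV Null replicate 1 and ended on leaving out any other single library (adjusted p up to 0.161), and scaling by library totals turned its WT change to -0.02.

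Setd2, the H3K36 trimethylase, did not pass. It stood at 319 ± 27.5 CPM in MII Null and 292 ± 24.1 CPM in GV Null (log2 0.13, adjusted p = 0.175), and at 351 ± 16.4 CPM in MII WT and 312 ± 8.19 CPM in GV WT (log2 0.17, adjusted p = 0.0988). The H4K20 enzymes split. Kmt5a, which monomethylates H4K20 and is needed for mitotic chromosome condensation, stood at 149, 145, 158 and 125 CPM in MII Null and 139, 120 and 143 CPM in MII WT, against 106, 93 and 96.5 CPM in GV Null and 100, 92.7 and 101 CPM in GV WT. Its egg libraries all lay above its GV libraries, with log2 fold changes of 0.55 in Null (adjusted p = 4.21e-05) and 0.45 in WT (adjusted p = 0.000649). Kmt5b, which carries H4K20 on to di- and trimethylation, fell in Null, with 3.80, 4.31, 5.56 and 6.62 CPM in MII Null and 7.86, 10.6 and 8.05 CPM in GV Null (log2 -0.80, SE 0.17, adjusted p = 0.000879). In WT it had 6.29, 5.65 and 6.19 CPM in eggs and 7.73, 9.0 and 7.91 CPM in GV oocytes, without overlap but short of the threshold (log2 -0.44, SE 0.19, adjusted p = 0.0653). Without GV Null replicates 2 and 3 the Null call of Kmt5b ended (log2 -0.63, adjusted p = 0.0640). Kmt5c, the third enzyme of this residue, stayed near or under 1 CPM and did not pass.

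Setd4 had the deepest fall of the members called in both genotypes. It encodes a SET-domain protein whose substrate is debated and which has been tied to cell quiescence. Setd4 (chromosome 16, 93583457 to 93604791) stood at 31.2, 20.4, 19.4 and 26.2 CPM in MII Null and 19.1, 19.2 and 18.8 CPM in MII WT, against 135, 118 and 122 CPM in GV Null and 113, 106 and 133 CPM in GV WT. No egg library came near a GV library. It fell 5.13-fold in Null (log2 -2.36, SE 0.13, adjusted p = 6.6e-10) and 6.16-fold in WT (log2 -2.62, SE 0.15, adjusted p = 1.04e-09). The call held under all 25 other settings in both genotypes, with log2 fold changes between -2.58 and -2.28 in Null and between -2.82 and -2.52 in WT. No RefSeq gene overlaps Setd4, whereas 21 of the 41 members with coordinates overlap another gene, and whether the counts used strand is not given.

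The other SET-domain proteins of this kind fell or did not pass. Setd6, which methylates the NF-kappaB subunit RelA, stood at 18.4, 19.2, 19.5 and 14.2 CPM in MII Null and 26.8, 18.2 and 17.1 CPM in GV Null, which overlap (log2 -0.22, SE 0.15, adjusted p = 0.262). In WT it fell, with 14.0, 12.9 and 16.7 CPM in eggs and 27.8, 22.3 and 24.0 CPM in GV oocytes (log2 -0.77, SE 0.17, adjusted p = 0.00114). Setd6 overlaps the gene Cnot1, and how reads of the shared stretch were assigned is not known here. Setd3, which methylates a histidine of actin rather than a histone, fell in WT, with 58.1 ± 7.27 CPM in eggs and 68.7 ± 3.05 CPM in GV oocytes (log2 -0.24, adjusted p = 0.0442). That call ended without GV Null replicate 3, any GV WT replicate or MII WT replicate 1 or 2 (adjusted p up to 0.207), and Setd3 overlaps Ccnk. Setd7, an H3K4 monomethylase with many other substrates, had 0.0787, 0.210, 0.286 and 0.715 CPM in MII Null and 0.565, 5.66 and 1.68 CPM in GV Null (log2 -3.03, SE 0.87, adjusted p = 0.0124). GV Null replicate 2 stands far above the rest, and without it the change was -1.79 (adjusted p = 0.0690). In WT Setd7 had 0.0993, 0.276 and 0.254 CPM in eggs and 1.30, 0.526 and 0.150 CPM in GV oocytes and did not pass. Setd5 and Kmt2e, with little or no shown activity on histones, had log2 fold changes of 0.13 and 0.20 in Null and 0.27 and 0.29 in WT, below the threshold.

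**Figure D2:**
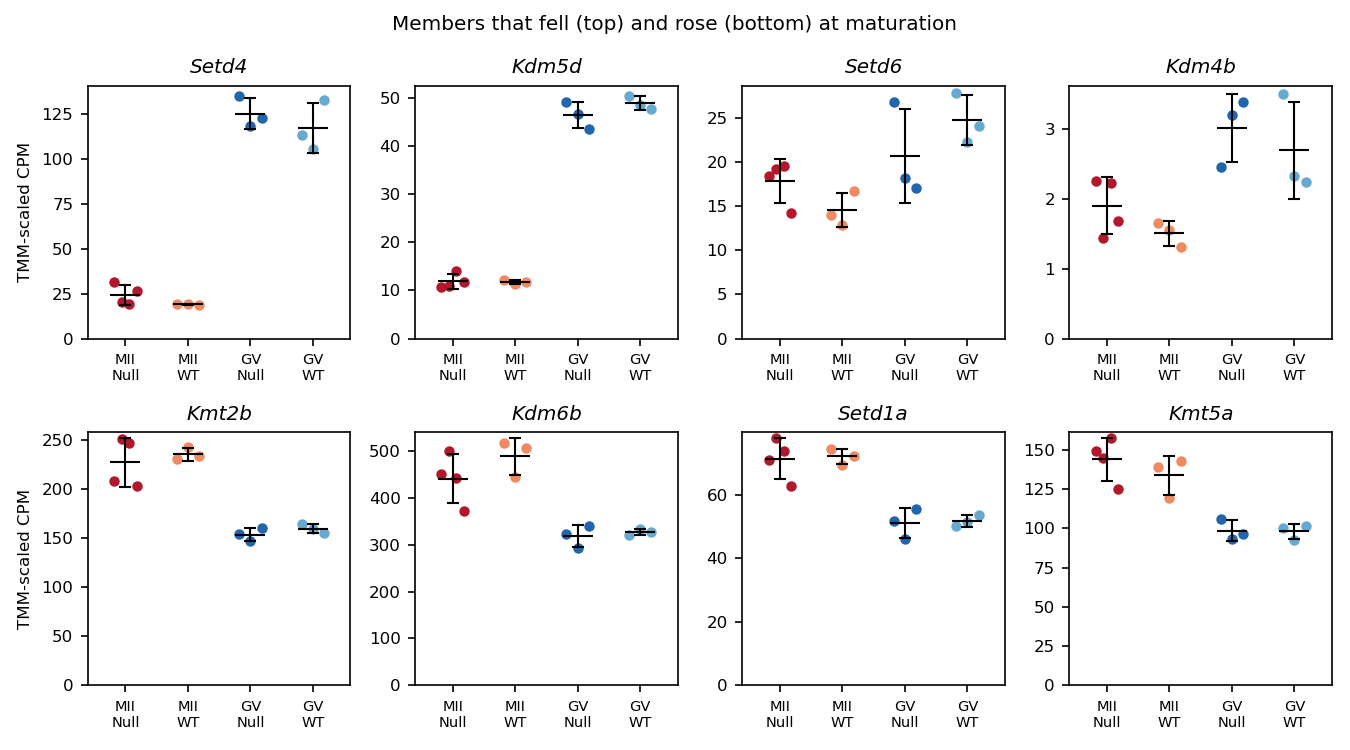
TMM-scaled CPM of 8 members in every library, with 4 that fell in the upper row and 4 that rose in the lower row; columns are MII Null, MII WT, GV Null and GV WT, bars show mean and SD, and each axis starts at 0. Setd4 and Kdm5d separate the stages widely, Setd6 overlaps between stages in Null, and the 4 members that rose separate the stages by less than 1.5-fold on average.

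Among the demethylases of H3K4, reads counted as Kdm5d and those of its paralog Kdm5c moved in opposite directions. Oocytes carry no Y chromosome, so the Kdm5d values describe reads so counted, and their source was not tested. Kdm5d, which removes H3K4 di- and trimethylation and lies on the Y chromosome (897566 to 943813), stood at 10.8, 11.0, 14.0 and 11.7 CPM in MII Null and 12.3, 11.4 and 11.8 CPM in MII WT, against 49.2, 46.7 and 43.6 CPM in GV Null and 50.5, 48.5 and 47.7 CPM in GV WT. The stages were far apart, and the fall was 3.92-fold in Null (log2 -1.97, SE 0.10, adjusted p = 2.61e-11) and 4.14-fold in WT (log2 -2.05, SE 0.11, adjusted p = 7.72e-11). It held under all 25 other settings in both genotypes. Its X-linked paralog Kdm5c stood at 49.7 ± 4.04 CPM in MII Null and 43.0 ± 2.25 CPM in GV Null (log2 0.21, adjusted p = 0.0426), and at 55.2 ± 3.79 CPM in MII WT and 44.5 ± 1.17 CPM in GV WT (log2 0.31, adjusted p = 0.00809). The log2 ratio of Kdm5d to Kdm5c counts was -2.07 ± 0.13 in MII Null and -2.22 ± 0.05 in MII WT, against 0.11 ± 0.10 in GV Null and 0.14 ± 0.08 in GV WT. The Null call of Kdm5c ended on leaving out any 1 of 8 libraries (GV Null replicates 2 and 3, GV WT replicates 1 to 3 and MII Null replicates 2 to 4; adjusted p up to 0.166), its WT call without MII WT replicate 1 (adjusted p = 0.0507), and scaling by library totals turned its Null change to -0.02.

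Oocytes come from females and carry no Y chromosome, so the counts on Kdm5d were set beside those of the other Y-linked genes. Of 252 Y-linked coding genes matched, 236 had 0 counts in every library and 247 had at most 3 counts in any library. Kdm5d had 314 to 441 counts per MII library and 1586 to 2256 counts per GV library. Ddx3y, Eif2s3y and Usp9y, broadly expressed in male cells, had at most 1 count. Besides Kdm5d, the predicted genes Gm20826 (648 to 873 counts per MII library and 1864 to 2697 per GV library) and Gm21244 (334 to 448 and 1073 to 1591) carried counts, Uty had 4 to 14, and Gm20812 had 5 in a single library. Which sequence gave the reads counted as Kdm5d was not tested, and its fall is that of the reads so counted.

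Kdm5a, another H3K4 demethylase, fell in both genotypes. It had 8.16, 7.77, 4.70 and 9.88 CPM in MII Null and 9.33, 21.0 and 14.1 CPM in GV Null (log2 -0.96, SE 0.27, adjusted p = 0.0107), and 5.33, 5.17 and 7.40 CPM in MII WT and 10.3, 14.0 and 9.60 CPM in GV WT (log2 -0.92, SE 0.30, adjusted p = 0.0255). The stages did not overlap in WT but overlapped in Null. The Null call ended without GV Null replicate 2 (log2 -0.62, adjusted p = 0.0614), and the WT call without GV WT replicate 2 or MII WT replicate 1 or 2 (adjusted p up to 0.0958). Kdm5b did not pass in either genotype. The flavin-dependent demethylases of H3K4 parted as well. Kdm1a rose, with 78.6, 76.6, 87.5 and 79.7 CPM in MII Null and 70.7, 53.8 and 53.6 CPM in GV Null (log2 0.44, adjusted p = 0.00113), and 74.3, 77.6 and 86.5 CPM in MII WT and 65.4, 57.6 and 58.5 CPM in GV WT (log2 0.39, adjusted p = 0.0051). Its Null call ended without GV Null replicates 2 and 3 (log2 0.19, adjusted p = 0.259). Kdm1b, the form that acts on imprinted genes in growing mouse oocytes, fell in Null, with 154, 185, 168 and 194 CPM in eggs and 200, 210 and 246 CPM in GV oocytes (log2 -0.32, SE 0.09, adjusted p = 0.00637). In WT it had 211, 196 and 182 CPM in eggs and 208, 230 and 232 CPM in GV oocytes, which overlap (log2 -0.19, SE 0.10, adjusted p = 0.127). Without GV Null replicate 3 the Null call of Kdm1b ended (adjusted p = 0.0642). The log2 ratio of Kdm1b to Kdm1a counts was 1.12 ± 0.19 in MII Null and 1.30 ± 0.22 in MII WT, against 1.89 ± 0.35 in GV Null and 1.88 ± 0.19 in GV WT. Kdm1a overlaps Luzp1 and Kdm1b overlaps Dek.

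The H3K27 demethylases rose. Kdm6b (chromosome 11, 69398508 to 69420367), a JmjC enzyme induced by many signals in somatic cells, stood at 451, 501, 443 and 373 CPM in MII Null and 517, 445 and 507 CPM in MII WT, against 324, 294 and 340 CPM in GV Null and 322, 333 and 327 CPM in GV WT. The stages did not overlap, and the log2 fold change was 0.47 in Null (SE 0.09, adjusted p = 0.000243) and 0.58 in WT (SE 0.09, adjusted p = 6.43e-05). Kdm6a, its X-linked relative and a partner of Kmt2c and Kmt2d, stood at 599, 697, 695 and 634 CPM in MII Null and 662, 666 and 623 CPM in MII WT, against 522, 444 and 488 CPM in GV Null and 480, 471 and 494 CPM in GV WT. It rose by 0.44 in Null (adjusted p = 7.3e-05) and by 0.43 in WT (adjusted p = 0.000178). Kdm7a, which removes methyl groups from H3K9 and H3K27, stood at 433 ± 33.9 CPM in MII Null and 317 ± 22.9 CPM in GV Null (log2 0.45), and at 425 ± 17.3 CPM in MII WT and 346 ± 13.4 CPM in GV WT (log2 0.30).

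The H3K36 demethylases rose too. Kdm2b, which also brings Polycomb complex PRC1 to unmethylated CpG islands, stood at 253, 334, 277 and 251 CPM in MII Null and 285, 297 and 300 CPM in MII WT, against 206, 196 and 201 CPM in GV Null and 216, 218 and 205 CPM in GV WT. Every egg library exceeded every GV library, with a log2 fold change of 0.47 in Null (adjusted p = 0.000153) and in WT (adjusted p = 0.000369). Kdm2a rose by 0.33 in Null (adjusted p = 0.00578) and by 0.31 in WT (adjusted p = 0.0140); the WT call ended without GV WT replicate 3 or MII WT replicate 2 (adjusted p up to 0.0731), and the Null call without GV Null replicates 2 and 3 (log2 0.23, adjusted p = 0.212).

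The KDM4 enzymes, which act on H3K9 and H3K36 trimethylation, diverged. Kdm4a rose, with 58.4 ± 4.33 CPM in MII Null and 43.8 ± 2.42 CPM in GV Null (log2 0.41, adjusted p = 0.00077), and 59.2 ± 4.30 CPM in MII WT and 49.3 ± 4.75 CPM in GV WT (log2 0.26, adjusted p = 0.0289). The WT call of Kdm4a ended on leaving out any 1 of GV WT replicates 2 and 3, MII Null replicates 1 to 4 and MII WT replicates 1 and 3 (adjusted p up to 0.131). Kdm4b fell, with 2.3, 1.44, 2.22 and 1.68 CPM in MII Null and 2.46, 3.20 and 3.38 CPM in GV Null (log2 -0.66, SE 0.23, adjusted p = 0.0217), and 1.66, 1.55 and 1.30 CPM in MII WT and 3.49, 2.33 and 2.24 CPM in GV WT (log2 -0.84, SE 0.25, adjusted p = 0.0108). Its call ended in Null without GV Null replicate 2 or 3 or MII Null replicate 2 (adjusted p up to 0.0911) and in WT without GV WT replicate 1 or MII WT replicate 3 (adjusted p up to 0.0849). Kdm4c fell in Null, with 0.157, 0.385, 0.699 and 0.808 CPM in eggs and 0.491, 1.97 and 1.46 CPM in GV oocytes, groups that overlap (log2 -1.35, SE 0.47, adjusted p = 0.0250). That call ended on leaving out any 1 of GV Null replicates 2 and 3 and MII Null replicates 1 and 2 (adjusted p up to 0.165), and without GV Null replicates 2 and 3 together the change was 0.05. Kdm4d stayed under 1 CPM and did not pass. The H3K9 demethylases Kdm3a and Kdm3b and the JmjC protein Kdm8 did not pass either, with log2 fold changes between -0.11 and -0.03 in Null and between -0.16 and 0.04 in WT.

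Single libraries differed in how often they held the highest value of a member. GV Null replicate 2, with the highest cumulus marker sum, was the highest of the 6 GV libraries for 12 of 40 members: Ehmt2, Kdm3a, Kdm3b, Kdm4c, Kdm5a, Kdm5b, Kmt2a, Kmt2e, Kmt5b, Kmt5c, Setd5 and Setd7. GV Null replicates 1 and 3 were the highest for 7 and 3 members, and GV WT replicates 1, 2 and 3 for 7, 9 and 2. How often each library was the highest over all genes was not counted, so such numbers are not a result about the members. The steroid-synthesis gene Hsd3b1, one of the markers, had 1.58 to 4.79 CPM in MII Null and 1.11 to 1.79 CPM in MII WT, and 2.80, 258 and 51.8 CPM in GV Null and 15.0, 5.24 and 2.27 CPM in GV WT. Of the 21 markers, 3 to 9 were at 0 counts in MII Null libraries and 8 to 10 in MII WT libraries, and 3, 0 and 0 in GV Null replicates 1, 2 and 3 and 2 in each GV WT library. Of the 7 MII libraries, MII Null replicates 1 to 4 were the highest for 3, 6, 10 and 6 members, and MII WT replicates 1 to 3 for 10, 2 and 3. The part of cumulus cells in the falls of members was not tested. Without GV Null replicates 2 and 3, GV Null replicate 1 was the lone GV Null library, with its spread assumed to be that of the other groups. The median log2 fold change of the members was then 0.20 in Null and 0.18 in WT, beside 0.02 and -0.01 over all genes. The Null calls that ended there were those of Ehmt1, Ehmt2, Ezh1, Ezh2, Kdm1a, Kdm1b, Kdm2a, Kdm4b, Kdm4c, Kdm5a, Kdm5c, Kmt5b, Setd1b, Setd7 and Setdb1. Among them Kdm1b had a log2 fold change of -0.19 (adjusted p = 0.258), Kdm5a of -0.29 (adjusted p = 0.552) and Kdm4b of -0.36 (adjusted p = 0.480).

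**Figure D3:**
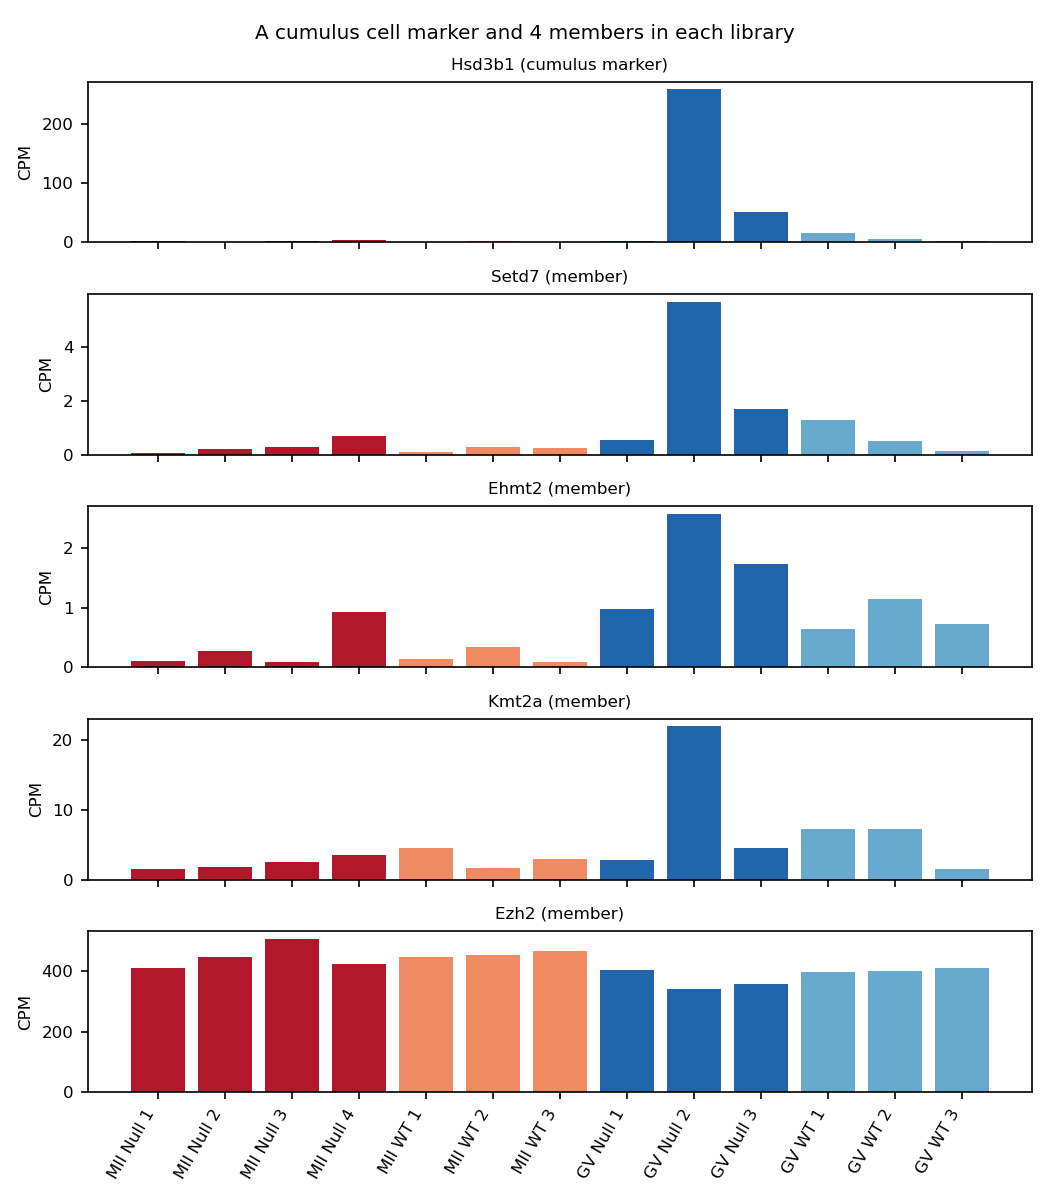
CPM of the cumulus marker Hsd3b1 and of 4 members in each of the 13 libraries, ordered MII Null, MII WT, GV Null and GV WT, with each bar 1 library and each axis starting at 0. GV Null replicate 2 stands highest for Hsd3b1, Setd7, Ehmt2 and Kmt2a, whereas it is the lowest for Ezh2, which runs from 342 to 508 CPM.

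No member passed the test between Null and WT, at either stage. In MII eggs, edgeR's quasi-likelihood test with Benjamini-Hochberg adjustment called 0 of 40 members between Null and WT (smallest adjusted p 0.721), against 0.0546% of all genes tested. In GV oocytes it likewise called 0 of 40 (smallest adjusted p 0.726), against 0.0546% of all genes. DESeq2 called 0 at each stage. At an unadjusted p under 0.05 there was 1 member in eggs and 2 in GV oocytes, where 6.35% and 6.66% of all genes lay. The median log2 fold change of the members, Null over WT, was -0.02 in eggs and -0.03 in GV oocytes, beside 0.01 and 0.02 over all genes.

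In eggs the member with the smallest p was Setd4, with a mean of 24.3 ± 5.51 CPM in Null eggs and 19.0 ± 0.237 CPM in WT eggs (log2 0.36, SE 0.14, adjusted p = 0.721). Its Null libraries all lay above its WT libraries, the only member of 40 without overlap in that direction and with none in the other, against 2.94% and 3.13% of all genes. Setd6 averaged 17.8 ± 2.46 CPM in Null eggs and 14.5 ± 1.94 CPM in WT eggs (log2 0.30, adjusted p = 0.823), Kdm5c 49.7 ± 4.04 and 55.2 ± 3.79 CPM (log2 -0.15, adjusted p = 0.827), and Setd2 319 ± 27.5 and 351 ± 16.4 CPM (log2 -0.14, adjusted p = 0.827). In GV oocytes the smallest p belonged to Ezh1, with 78.1 ± 3.92 CPM in Null oocytes and 87.1 ± 1.96 CPM in WT oocytes (log2 -0.16, SE 0.07, adjusted p = 0.726). Setd7 followed, with 2.63 ± 2.68 CPM in Null oocytes and 0.658 ± 0.586 CPM in WT oocytes (log2 1.98, SE 0.88, adjusted p = 0.731), a difference that rests on GV Null replicate 2 and turns to -0.23 without GV Null replicates 2 and 3. Kdm4d averaged 0.658 ± 0.0547 CPM in Null oocytes and 0.366 ± 0.128 CPM in WT oocytes (log2 0.85, adjusted p = 0.768), and Kdm4a 43.8 ± 2.42 and 49.3 ± 4.75 CPM (log2 -0.17, adjusted p = 0.798). Kdm4d was higher and Ehmt1, Ezh1 and Kdm4a were lower in Null without overlap, against 6.83% and 5.93% of all genes.

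Approximate 95% intervals, set for 1 member at a time from the SE and a normal quantile, describe the size of the genotype differences. They can be narrower than the test implies and set no joint bound over members. For Kdm4d in GV oocytes the interval was 0.0002 to 1.70, without 0, while edgeR's unadjusted p was 0.0657. For the 28 members with at least 10 CPM, the log2 fold changes ran from -0.16 to 0.36 in eggs, and their 95% intervals lay within -0.35 (Setdb2) and 0.63 (Setd4), or 0.783-fold to 1.54-fold. In GV oocytes they ran from -0.26 to 0.09, with intervals within -0.57 (Setd6) and 0.36 (Setd4), or 0.672-fold to 1.28-fold. For the 12 members under 10 CPM the intervals reached from -2.00 to 2.72 in eggs and from -0.76 to 3.70 in GV oocytes, both upper ends belonging to Setd7. Their widths differed, and Kdm3a had an interval of -0.23 to 0.49 in GV oocytes.

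**Figure D4:**
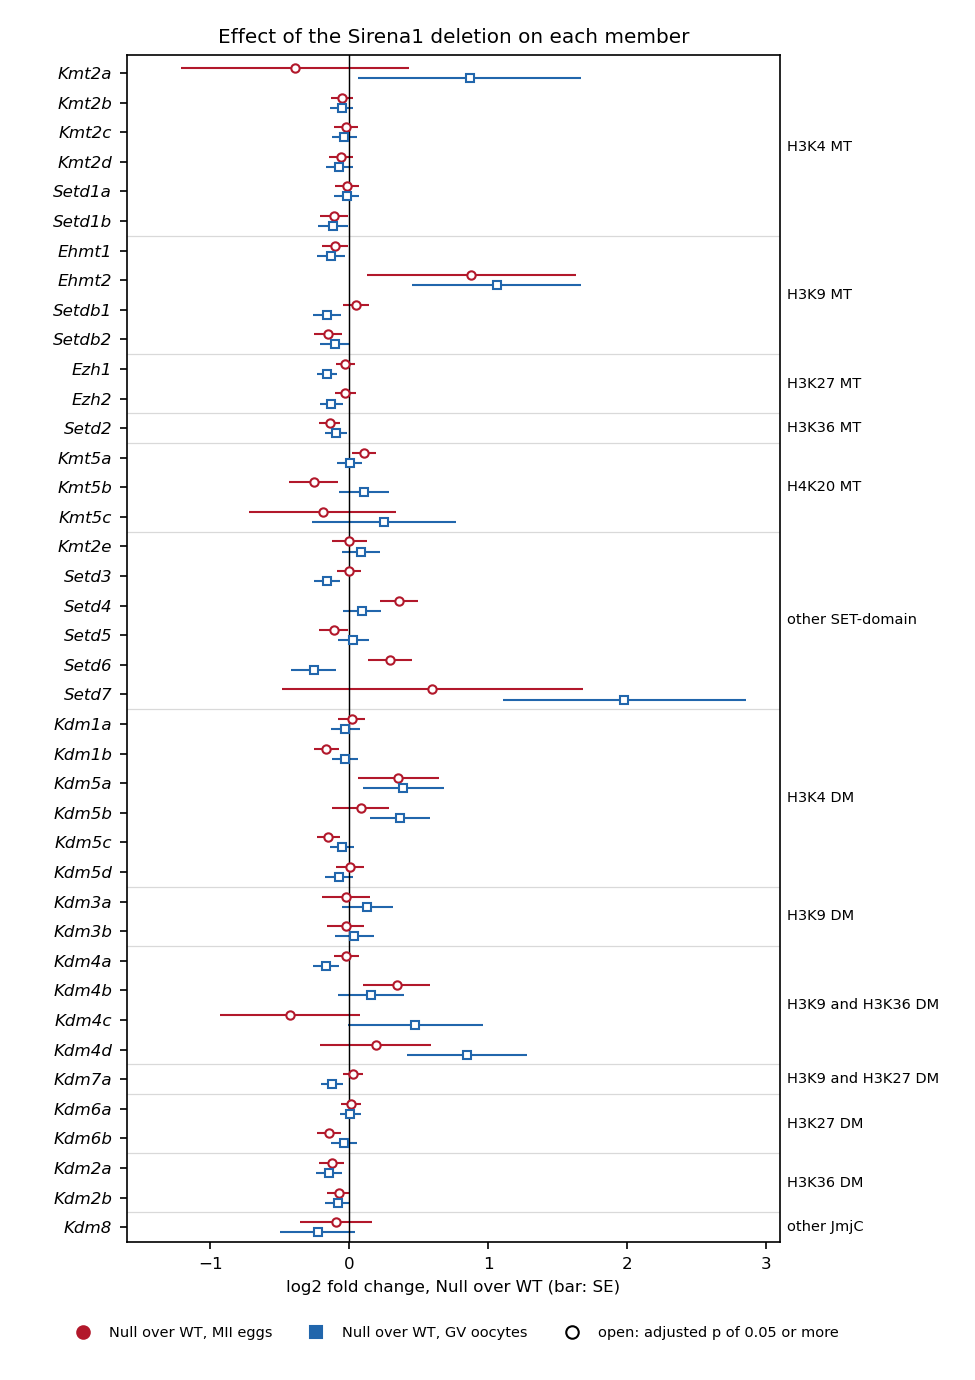
Log2 fold change of each of the 40 tested members between Null and WT, in MII eggs (red circles) and in GV oocytes (blue squares), grouped by residue. Bars are the SE of the fit and every symbol is open because no member passed; most symbols lie within 0.4 of 0, and those beyond it at one or both stages (Setd7, Ehmt2, Kmt2a, Kdm4d and Kdm4c) are members under 10 CPM.

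Whether maturation differed between the genotypes was tested directly. The difference, the change in Null less the change in WT, passed for 0 of 40 members (edgeR, smallest adjusted p 0.999), against 0.00496% of all genes; DESeq2 also gave 0. Setd6 was the 1 member that had an unadjusted p under 0.05, where 3.38% of all genes lay (difference 0.55, SE 0.23, adjusted p = 0.999). The next by p were Setdb1 (0.21), Kdm7a (0.15) and Kmt5b (-0.36). The Setdb1 difference turned to -0.07 without GV Null replicates 2 and 3. Thus calls made in one genotype alone, such as those of Setd6, Kmt5b, Kdm1b and Setd7, are not shown to differ between genotypes. For members with at least 10 CPM the approximate 95% intervals of the difference lay within -0.45 and 0.99.

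Genes that work with the members were read from 6 lists, of which 64 of 67 genes were tested. In Null, 33 were higher and 5 lower in eggs, and in WT 29 were higher and 5 lower, with median log2 fold changes of 0.26 and 0.22. Of all genes tested, 22.1% were higher and 26.9% lower in Null and 19.9% and 22.8% in WT, with medians of -0.05 and 0.01. Among the genes with at least 10 CPM, 44.6% were higher and 20.8% lower in Null, with a median of 0.18. In WT 39.2% of them were higher and 21% lower, with a median of 0.17. Of 11 subunits of the H3K4 methyltransferase complexes, 7 were higher and 0 lower in Null, and 6 higher and 2 lower in WT. Cxxc1, which brings the SET1 complexes to CpG islands, stood at 92.5 ± 6.80 CPM in MII Null and 53.5 ± 3.26 CPM in GV Null, and at 96.6 ± 5.39 CPM in MII WT and 53.0 ± 2.05 CPM in GV WT (log2 0.79 and 0.87). Ncoa6 and Psip1 had log2 fold changes of 0.60 and 0.70 in Null and 0.67 and 0.64 in WT. The largest rise in WT among the members that passed was 0.58, for Kdm6b.

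Of 10 PRC2 subunits, 8 were higher in Null and 5 in WT with none lower; Aebp2, a cofactor that stabilises the complex, stood at 88.3 ± 2.29 CPM in MII Null and 56.1 ± 1.95 CPM in GV Null, and at 89.2 ± 0.471 CPM in MII WT and 56.2 ± 2.38 CPM in GV WT. The log2 fold changes in Null and WT were 0.51 and 0.42 for Rbbp7, a histone chaperone, and 0.49 and 0.62 for Phf19. Of 10 partners and readers of H3K9 methylation, 6 were higher and 1 lower in Null, and 7 higher and 1 lower in WT; the Setdb1 cofactor Atf7ip rose by 0.47 and 0.41 and the Ehmt partner Wiz by 0.44 and 0.51, whereas Cbx1, a heterochromatin protein that reads H3K9 methylation, had changes of -0.26 and -0.41. Of 17 other lysine methyltransferases, 8 were higher and 2 lower in Null and 8 higher and 0 lower in WT, among them the H3K79 enzyme Dot1l (0.50 and 0.52), the H3K9 enzyme Suv39h2 (0.50 and 0.47) and Prdm16 (0.36 and 0.51). Of 8 other demethylases, 2 were higher in each genotype, Phf2 (0.47 and 0.61) and Phf8 (0.39 and 0.28), both acting on H3K9, while Jmjd6 did not pass (0.22 and 0.21). Of 8 partners of Kdm1a and Kdm1b, 2 were higher and 2 lower in Null, and 1 higher and 2 lower in WT: the scaffold Rcor1 rose by 0.45 and 0.30, and the deacetylases Hdac2 (-0.39 and -0.42) and Hdac1 (-0.66 and -0.63) fell. Between Null and WT, edgeR called 0 of the 64 partner genes in eggs (smallest adjusted p 0.727, with 1 at an unadjusted p under 0.05) and 0 in GV oocytes (smallest adjusted p 0.675, with 5).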

How the data were processed

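RNA-seq libraries of 25 cells each were read as 65 bp single ends, per the labels' protocols. The deposited table holds raw read counts per gene, not normalized, and per the submitters' processing notes the tools and build were STAR 2.5.3a, bedtools 2.26.0 and GRCm38.p6, with Ensembl 93 gene IDs per the file headers. How reads were counted, with or without strand, and what was done with multimapping reads: not given in the sources used here. Of the IDs, 54079 matched a symbol and 153 did not. Of the table's columns, 0 lacked a sample.

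All 13 libraries entered one edgeR 4.0.16 fit (R 4.3.3) with 4 groups, TMM factors and filterByExpr. The quasi-likelihood test (glmQLFit robust, glmQLFTest, two-sided) gave 5 contrasts with Benjamini-Hochberg adjustment over 20143 genes and a threshold of 0.05. Levels are TMM-scaled CPM. DESeq2 1.42.0, limma 3.58.1 (voom), other scalings, filters, a minimum fold and omission of libraries were alternatives. The code was tested on simulated data. Transcript lengths were not used, so levels were not compared between genes. Members past the threshold with at least 1 CPM in the higher group were given in full, up to 12 per direction by fold; genotype comparisons name the 4 smallest p, and lists up to 3 genes by p. Members and lists were chosen with earlier results of these data known. Same-numbered replicates of different groups correlated between -0.11 and 0.23 in their deviations over 10104 genes, with no comparison over 0.1 in every pair, so the numbers were not taken as pairs. Pairing within a stage was not modelled. Replicates of a group differed beyond counting noise, and no pair of libraries was identical.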

Additional observations from a re-analysis of the deposited data

Results flagged for a closer look

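In the 4 MII Null libraries, 1 library lay far from the others for 2 of the 40 members. Kdm2a, an H3K36 demethylase, stood at 63.1 CPM in MII Null replicate 1 and at 78.4 to 79.1 CPM in replicates 2 to 4. Kdm7a, a demethylase of H3K9 and H3K27, stood at 382 CPM in MII Null replicate 1 and at 446 to 452 CPM in replicates 2 to 4. In each case the gap to the nearest library exceeded Dixon's 95% critical share of the group's range. Such a rule marks about 1 in 20 groups, or 2 of 40 members, if members are independent, which members of the same libraries need not be. Both marks are low values of MII Null replicate 1. Members together took 0.573% of the counts of that library, against 0.640% to 0.677% in replicates 2 to 4. The cause was not tested.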

How the results depend on the processing

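Of all genes, 49% passed for maturation in Null, and 40.1% to 49.8% on leaving out single libraries. In WT, 42.7% of all genes passed, and 34.5% to 43.4% on leaving out single libraries. Where GV Null replicate 1 stands alone, that group has no spread of its own, so fewer Null calls are no result about members. The count of members called for maturation in Null was 27, and 22 to 27 on leaving out single libraries. In WT it was 23, and 15 to 25 on leaving out single libraries, the lowest without MII WT replicate 1; it was 28 without GV Null replicates 2 and 3 and MII Null replicate 4 together. With a minimum of 1.5-fold 4 members were left in Null (Ehmt2, Kdm5d, Setd4 and Setd7) and 2 in WT (Kdm5d and Setd4), beside 16% and 13.4% of all genes. Without GV Null replicates 2 and 3, the Null count was 14, and 17 without MII Null replicate 4 as well, where GV Null replicate 1 stands alone. With the replicate number as a block, 26 members passed in Null, 24 in WT and 0 between genotypes; no comparison had a same-number correlation over 0.1 in every pair, so the numbers were not taken as pairs, and the call of Ezh1 (adjusted p = 0.0655) and of Setd3 in WT and of Kdm5c in Null was lost. Same-numbered samples correlated best with each other in 1 of 6 samples for maturation in Null, 0 of 6 in WT, 4 of 6 for genotype in eggs and 6 of 6 in GV oocytes. In GV oocytes those correlations ran from 0.05 to 0.17. The block used 1 term per number across both stages, so pairing within a stage was not modelled. Its 0 calls between genotypes do not bear on such pairing. With no filter on low counts, 1 member (Setd4) passed between genotypes in eggs, 2 (Kmt2a and Setd7) in GV oocytes and 1 (Kmt2a) for the difference between genotypes in maturation, and voom with sample weights called 1 (Setdb1) in GV oocytes. Of all genes, 0.732%, 1.63% and 0.397% passed these 3 tests without the filter, and 2.27% passed with voom in GV oocytes. With the replicate block, 49% of all genes passed for maturation in Null and 43.4% in WT. Directions turned in few cases. Scaling by library totals gave -0.0153 for Kdm5c in Null and -0.0186 for Ezh1 in WT. Without GV Null replicates 2 and 3, Kdm4c in Null became 0.0501, Setd7 between genotypes in GV oocytes -0.231 and the Setdb1 difference -0.0673; without MII Null replicate 4 as well, these last became -0.233 and -0.0490. Leaving out single libraries moved Setd7 between 0.746 and 2.94 and the Setdb1 difference between 0.136 and 0.378. The causes were not tested. A floor of 3 counts corresponds to 0.0672 to 0.105 CPM, and Ehmt2 and Setd7 came near it in some egg libraries.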

Other observations

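Some of the genes that mark the cells themselves also changed at maturation. Of 11 oocyte markers tested, 7 were lower, 1 higher and 3 not called in Null. In WT 4 were lower, 1 higher and 6 not called. Of all genes, 26.9% were lower in Null and 22.8% in WT. The oocyte markers named here are the 3 with the smallest p in WT. The oocyte transcription factor gene Figla stood at 2.53 ± 0.444 CPM in MII Null and 8.60 ± 1.14 CPM in GV Null, and at 2.21 ± 0.334 CPM in MII WT and 8.06 ± 0.663 CPM in GV WT. The zona pellucida gene Zp2 had log2 fold changes of -1.77 in Null and -1.74 in WT, and Padi6, a component of oocyte cytoplasmic lattices, -0.62 in both. Of 18 cumulus markers tested, 11 were lower, 0 higher and 7 not called in Null, and 5 were lower, 1 higher and 12 not called in WT. Inhbb and Amh were at 0 counts in all MII WT libraries, with 2.49 ± 1.18 and 0.367 ± 0.191 CPM in GV WT. Cyp19a1, the aromatase gene, was the marker called higher in WT eggs (log2 0.40). It had levels of 25.9, 24.4 and 28.5 CPM across the GV Null libraries, in replicate order, and did not follow their marker sum.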
